A study of Mus musculus with 6 samples.

Results

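The keratins described here are all genes of the array whose transcript cluster carries a single gene symbol of the form Krt and a number, with or without a letter. There were 52 of them among 19938 genes with 1 symbol, each measured by 1 transcript cluster, the set of probes that stands for a gene. They fell into 7 keratins of simple epithelia, 4 of basal cells, and 15 of differentiated stratified epithelia or specialised sites. Another 23 were of hair, nail and hair follicle, here called hair keratins, and 3 were left unclassified (Krt222, Krt88 and Krt90). Krt81, Krt83 and Krt85 were not analysed here. RNA came from MLE15, a mouse lung epithelial line grown from tumors that SV40 large T antigen, placed under the human surfactant protein C promoter, causes in transgenic mice. In the Nkx2-1-shRNA group (3 arrays) MLE15 cells carried a mix of shRNAs against Nkx2-1 in the pLKO.1 lentivirus, and in the non-silencing control group (3 arrays) they carried that vector empty. The labels give 48 h for all arrays, while the study describes independently transduced stable lines after puromycin selection in both groups. The comparison asks which keratins changed when Nkx2-1, the homeobox factor of lung and thyroid epithelium, was reduced.

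Keratins are the intermediate filament proteins of epithelial cells. A filament is built from heterodimers of an acidic type I keratin and a basic type II keratin, so the genes are expressed in pairs that follow the kind of epithelium. Krt8 and Krt18 pair in simple epithelia such as the alveolar lining, Krt5 and Krt14 in basal cells of airway and skin, Krt1 and Krt10 in the upper epidermis, Krt4 and Krt13 in the esophagus, and Krt6a and Krt16 in wounded epidermis. In the mouse most type I genes lie in a cluster on chromosome 11 and the type II genes in a cluster on chromosome 15, where Krt18 sits as well.

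Values are log2 signals after Robust Multi-Array Analysis, a fold change is the difference between group means of these values, and a gene passed the test at an adjusted p under 0.05 in limma, adjusted over 35557 transcript clusters. A value above 4.35 was taken as above background. This is the 95th percentile of the means over 6 arrays of 1243 transcript clusters of chemosensory receptor genes. Nkx2-1 itself read 7.91, 7.98 and 7.83 after knock-down and 8.61, 8.61 and 8.59 in the control arrays, which left 61.8% of the control level (adjusted p = 0.00155). The summed signal of 7 lung epithelial markers was 12.91 to 12.93 in the Nkx2-1-shRNA arrays and 12.88 to 12.88 in the controls on the log2 scale. Unlogged signals were summed, so the sum mainly follows Sftpb, Cdh1 and Epcam (means of 11.69, 11.02 and 10.22 in the controls), which did not pass. The other 4 markers fell, among them Sftpc, which encodes surfactant protein C, from 7.73 to 4.08. The median log2 fold change of the 7 was -0.40. Array medians were 5.10 to 5.14 and 5.18 to 5.21 in the 2 groups, and no array stood apart.

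The sequences upstream of the start sites of Krt79, Krt78, Krt14 and Krt18 are shown because these keratins rose, the first 3 with the largest fold changes of the family and Krt18 with the smallest of those that rose. Each is the 250 bases before the RefSeq start (GRCm38.p6), printed in the direction of transcription, with every CAAG or CTTG, the core of the NKX2-1 consensus on either strand, in capitals.
Krt79, chr15:101940325-101940574, minus strand: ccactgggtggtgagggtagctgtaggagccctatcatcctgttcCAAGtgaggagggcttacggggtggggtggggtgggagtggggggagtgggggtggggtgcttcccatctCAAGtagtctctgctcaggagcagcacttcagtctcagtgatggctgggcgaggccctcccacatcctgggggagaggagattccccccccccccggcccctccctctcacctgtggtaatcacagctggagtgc
Krt78, chr15:101954288-101954537, minus strand: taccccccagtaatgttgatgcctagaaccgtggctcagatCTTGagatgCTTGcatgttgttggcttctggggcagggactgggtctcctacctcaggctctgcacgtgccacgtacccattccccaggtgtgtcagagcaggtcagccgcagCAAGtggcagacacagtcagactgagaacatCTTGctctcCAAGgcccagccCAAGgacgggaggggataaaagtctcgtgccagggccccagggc
Krt14, chr11:100206031-100206280, minus strand: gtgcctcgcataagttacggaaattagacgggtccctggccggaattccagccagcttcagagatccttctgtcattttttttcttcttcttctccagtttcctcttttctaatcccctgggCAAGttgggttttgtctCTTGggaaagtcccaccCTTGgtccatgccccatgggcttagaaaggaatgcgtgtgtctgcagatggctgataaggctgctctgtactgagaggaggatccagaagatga
Krt18, chr15:102027966-102028215, plus strand: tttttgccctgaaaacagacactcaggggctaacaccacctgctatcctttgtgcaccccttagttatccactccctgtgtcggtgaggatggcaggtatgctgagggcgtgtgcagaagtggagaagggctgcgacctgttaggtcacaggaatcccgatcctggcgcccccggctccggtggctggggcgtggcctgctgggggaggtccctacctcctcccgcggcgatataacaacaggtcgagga
The core was found 2 times before Krt79, 6 times before Krt78, 3 times before Krt14 and 0 times before Krt18. RefSeq promoters, from 250 bases before to 50 after the start, were given for 36 of the 52 keratins in 37 entries. The core was in 89.2% of these entries and in 90.6% of all 32851 promoters, and among keratins that changed it was in 5 of the 6 with an entry (Krt20, Krt14, Krt7, Krt79 and Krt78 but not Krt18). The AP-1 motif TGANTCA, searched as read on both strands, was in 5.41% of keratin promoters and 7.81% of all, and in 0 of the 6. The TATA box letters TATAAA or TTTATA were in 51.4% of keratin promoters against 13.6% of all promoters. They were in 14 of 18 hair keratin promoters, 2 of 5 of simple, 3 of 11 of stratified and 0 of 2 of basal keratins, and in 1 of the 6 whose gene changed, that of Krt20. A match is only a match of letters.

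Of the 52 keratins, 10 rose, 1 fell and 41 did not pass the test. The 10 were Krt79, Krt14, Krt78, Krt19, Krt6a, Krt20, Krt16, Krt7, Krt80 and Krt18, and the keratin that fell was Krt4. The share that rose was 19.2%, with 10.7% of all genes rising, and the share that fell was 1.92%, with 9.88% of all genes falling. With each array centred on its median these shares of all genes were 13.5% and 7.21%, and the keratin counts were still 10 and 1. Among the 30 keratins whose mean lay above background, 9 rose (30.0%) and 1 fell (3.33%), beside 15.3% and 13.9% of the 13297 genes above background. That mean is over all 6 arrays, so a gene can pass this filter through its rise. Krt20, 1 of the 9, was above background only in the Nkx2-1-shRNA group, and in 28 keratins both groups were above it. At the study's own threshold, an adjusted p under 0.0005, Krt79 and Krt14 remained in limma. That is 3.85% of keratins beside 1.88% of all genes. The count depends on the test and on the clusters tested. With the methods' test no keratin remained, the smallest adjusted p being 0.00477. In limma on clusters of 1 symbol, Krt78, Krt20, Krt19, Krt6a and Krt4 also lay under this threshold (adjusted p of 9.6e-06 to 0.00037). The study's cut on fold change was not applied. The median log2 fold change was 0.065 over the keratins and -0.0070 over all genes. In RNA from whole cultures, a change in the number of cells that express a keratin and a change in its RNA per cell cannot be told apart.

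**Figure D1:**
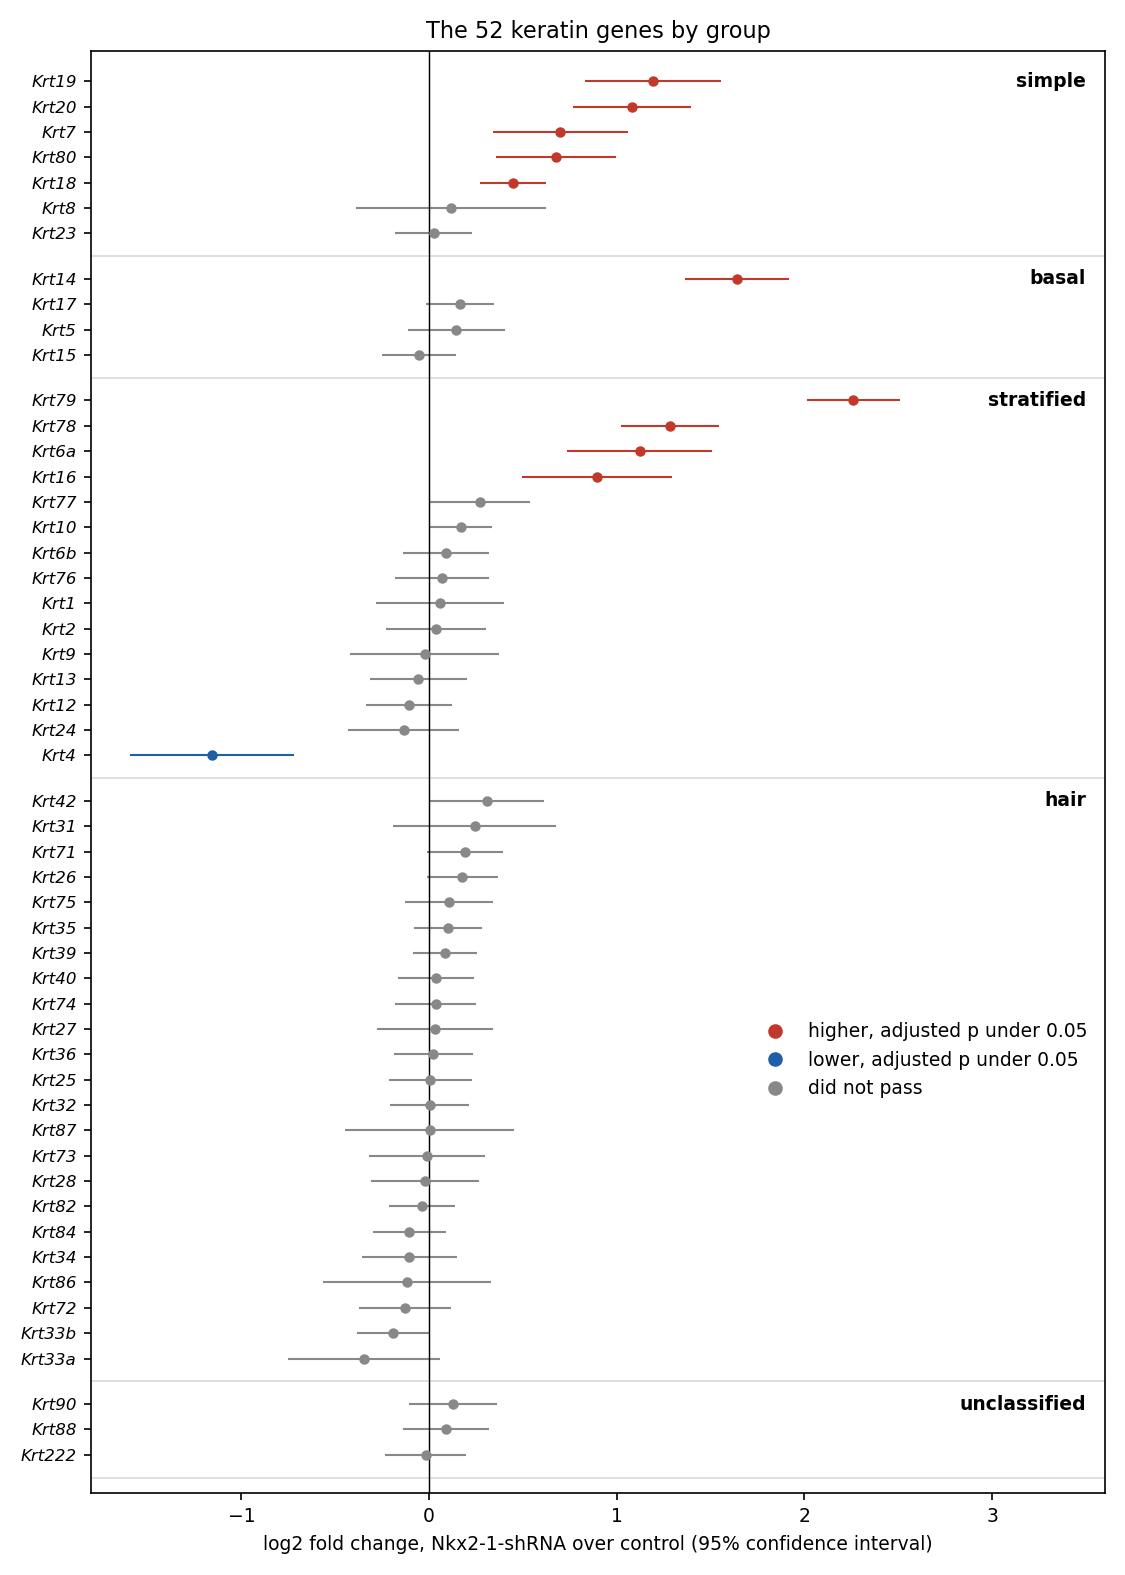
Log2 fold change of each of the 52 keratins (x axis, Nkx2-1-shRNA over non-silencing control; points, estimate; bars, 95% confidence interval), grouped by epithelium. Changes lie among the simple, basal and stratified keratins, up to 2.26 for Krt79, with Krt4 alone lower at -1.16, and all 23 hair keratins lie between -0.35 and 0.31.

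The groups of arrays did not overlap for 18 keratins (34.6%, beside 40.2% of all genes), 15 with every Nkx2-1-shRNA array above every control array and 3 below. These were the 11 that passed the test and 7 more, Krt26, Krt10, Krt39, Krt33b, Krt17, Krt84 and Krt71, whose differences were between 0.083 and 0.19. In contrast, no keratin outside the 11 had a fold change beyond 0.35 in either direction, and their confidence intervals ran from -0.75 to 0.68.

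Among the 7 simple epithelial keratins 5 rose, 0 fell, and the median log2 fold change was 0.68. Of all genes 10.7% rose and 9.88% fell. The median level of these 7 was high, at 10.61. In a fit of the clusters above the median level, 21.9% of genes rose and 21.0% fell. Krt19, a type I keratin of ducts and many simple epithelia that has no tail domain, had 11.31, 11.22 and 11.39 in the Nkx2-1-shRNA arrays and 10.09, 9.83 and 10.42 in the controls. It rose by 1.19 ± 0.15 (SE, n = 3 per group, limma adjusted p = 0.00291), with every Nkx2-1-shRNA array above the controls, which were spread wider (SD 0.30 against 0.086). Krt20, known from intestinal epithelium, urothelium and Merkel cells, had 5.13, 5.26 and 4.78 against 3.94, 3.92 and 4.06. It rose by 1.08 ± 0.13 (SE, limma adjusted p = 0.00246), from below background in each control array to above it in each Nkx2-1-shRNA array.

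Krt7, a type II keratin of glandular and simple epithelia, had 11.07, 11.14 and 10.66 in the Nkx2-1-shRNA arrays and 10.29, 10.40 and 10.08 in the controls. It rose by 0.70 ± 0.15 (SE, limma adjusted p = 0.0223), and the third Nkx2-1-shRNA array lay closest to the controls. This call was the least stable of the 11, since the adjusted p reached 0.0805 with 1 array left out and was over 0.05 without Nkx2-1-shRNA replicate 1 or 2 or without control replicate 1 or 3. Krt80, a type II keratin of several epithelia that was counted here with the simple keratins, had 7.55, 7.21 and 7.33 against 6.75, 6.84 and 6.46. It rose by 0.68 ± 0.14 (SE, limma adjusted p = 0.0167), and without the first Nkx2-1-shRNA array its adjusted p was 0.0567.

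Krt18 had 11.49, 11.59 and 11.48 in the Nkx2-1-shRNA arrays and 11.06, 11.08 and 11.09 in the controls. Its rise of 0.44 ± 0.074 (SE, limma adjusted p = 0.00825) was the smallest that passed, with controls that differed by an SD of 0.013. Its partner Krt8 had 11.03, 11.38 and 10.56 against 10.83, 11.10 and 10.69, and these groups overlapped (0.12 ± 0.21, SE, adjusted p = 0.783, 95% confidence interval -0.39 to 0.62). Krt23 did not pass either, with a difference of 0.024.

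Of the 4 basal cell keratins 1 rose and 0 fell, beside 10.7% and 9.88% of all genes. Krt14, the type I keratin of basal cells, had 7.35, 7.55 and 7.17 in the Nkx2-1-shRNA arrays and 5.61, 5.75 and 5.80 in the controls. It rose by 1.64 ± 0.12 (SE, n = 3 per group, limma adjusted p = 0.000309), a 3.12-fold change in which the lowest Nkx2-1-shRNA array stood well above the highest control.

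Krt5, the type II partner of Krt14, had 4.78, 4.88 and 4.98 against 4.55, 4.80 and 4.86. The groups overlapped, just above background (difference 0.15, adjusted p = 0.447). Krt15, found in basal cells and hair follicle stem cells, had 4.74, 4.83 and 4.68 against 4.88, 4.79 and 4.73, which also overlapped. Krt17, a type I keratin of basal and injured epithelium, stayed below background in all arrays, with 4.22, 4.23 and 4.15 against 4.07, 4.07 and 3.96 (difference 0.17, adjusted p = 0.211).

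Of the 15 keratins of differentiated stratified epithelia, 4 rose, 1 fell and 10 did not pass. Of all genes 10.7% rose and 9.88% fell. Krt79, a type II keratin of the hair follicle canal and sebaceous duct, had the largest fold change of the family. It had 8.80, 8.98 and 8.65 in the Nkx2-1-shRNA arrays and 6.47, 6.58 and 6.60 in the controls. The rise of 2.26 ± 0.10 (SE, n = 3 per group, limma adjusted p = 8.0e-05) is 4.79-fold, with all 6 arrays above background.

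Krt78, a type II keratin of stratified epithelia whose gene lies next to Krt79, had 6.33, 6.20 and 6.18 against 4.98, 5.10 and 4.76. It rose by 1.29 ± 0.11 (SE, limma adjusted p = 0.000617), or 2.44-fold. Krt4, the type II keratin of esophageal epithelium and the neighbor of Krt79 on its other side, went the opposite way, with 5.05, 5.11 and 4.90 in the Nkx2-1-shRNA arrays and 6.14, 6.56 and 5.82 in the controls. It fell by 1.16 on the log2 scale (SE 0.18, limma adjusted p = 0.00689), or 2.23-fold, and the groups did not overlap.

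Both keratins of the wound-induced pair rose. Krt6a had 6.56, 6.77 and 6.37 in the Nkx2-1-shRNA arrays and 5.73, 5.38 and 5.21 in the controls, a rise of 1.12 ± 0.16 (SE, limma adjusted p = 0.00478). Krt16 had 4.66, 4.50 and 4.49 against 3.62, 4.01 and 3.34, a rise of 0.89 ± 0.17 (SE, limma adjusted p = 0.0133). Krt16 crossed the background limit between the groups, all 3 controls lying under it, and its adjusted p was 0.0528 without the first Nkx2-1-shRNA array. Krt6b, a close copy of Krt6a, was below background in both groups with a difference of 0.090. Probes of close copies (Krt6a and Krt6b, Krt33a and Krt33b, and to a lesser degree Krt14, Krt16 and Krt17) can pick up RNA of each other, and this was not tested.

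The keratins of the upper epidermis did not pass. Krt1 had 3.15, 3.27 and 3.59 in the Nkx2-1-shRNA arrays and 3.14, 3.21 and 3.48 in the controls, all below background. Krt10, its type I partner, had 5.09, 5.09 and 5.05 against 4.95, 4.87 and 4.92, groups that did not overlap but differed by only 0.17 (adjusted p = 0.174). Krt13, the partner of Krt4, had 4.29, 4.56 and 4.43 against 4.62, 4.35 and 4.48, close to background and overlapping (adjusted p = 0.791). Krt77, a type II keratin of skin, had the largest difference of the 10 that did not pass (0.27, adjusted p = 0.161).

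**Figure D2:**
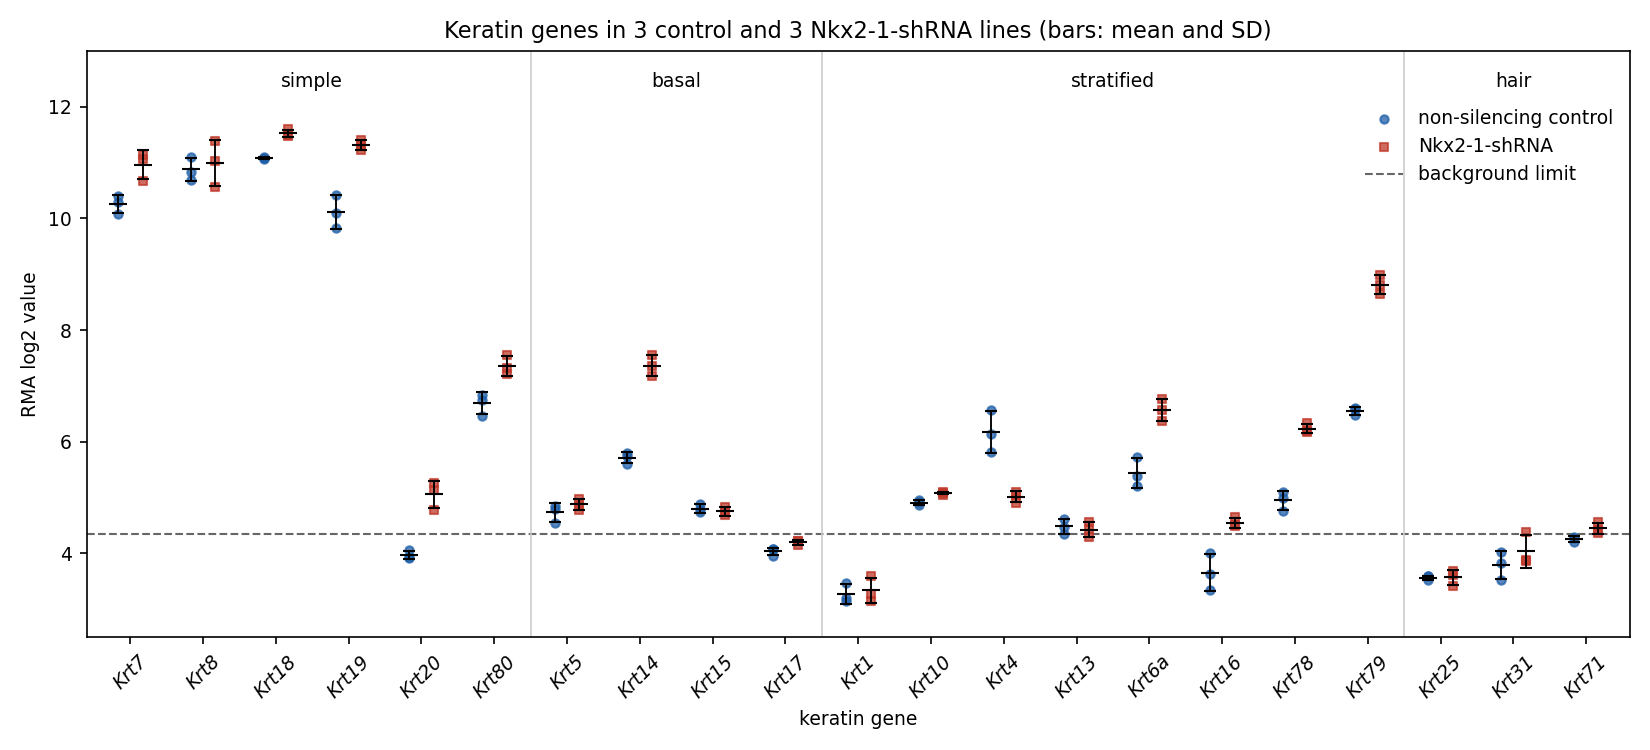
Log2 values of single arrays (y axis) for the 21 keratins that changed or are best known in each group; circles are the 3 control arrays, squares the 3 Nkx2-1-shRNA arrays, and bars the mean and SD. A dashed line marks background (4.35); Krt79 and Krt14 show the widest gaps between the groups, and Krt4 is the only keratin shown whose control arrays all lie above its Nkx2-1-shRNA arrays by a called difference.

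Krt79, of the hair follicle canal and sebaceous duct, was counted above as stratified and is not among the hair keratins. All 23 hair keratins failed the test in either direction, with a median log2 fold change of 0.0054, while 10.7% of all genes rose and 9.88% fell. None of the hair keratins passed with the methods' test either. At an unadjusted p under 0.05 limma gave 2, Krt33b (-0.19) and Krt42 (0.31), beside 6593 of all 19938 genes. In 10 of the 23 hair keratins both groups were below background and in 11 both were above it. Krt33b, a shaft keratin, had 6.19, 6.25 and 6.19 in the Nkx2-1-shRNA arrays and 6.30, 6.47 and 6.42 in the controls, groups that did not overlap (adjusted p = 0.165). Krt33a differed most, by -0.35, with overlapping groups (adjusted p = 0.237).

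The best known of the hair keratins were near or below background. Krt31 of the hair cortex had 4.38, 3.88 and 3.86 against 3.83, 3.53 and 4.03 (adjusted p = 0.450). Krt71 of the inner root sheath had 4.42, 4.56 and 4.36 against 4.28, 4.29 and 4.20, and its root sheath partner Krt25 had 3.68, 3.62 and 3.42 against 3.52, 3.59 and 3.59. The 3 unclassified keratins had differences from -0.018 to 0.13.

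Since a filament needs both types, the partners of a pair were set against each other within each array as the type I minus the type II log2 value. The 5 pairs were picked after the values had been seen, and with 3 against 3 arrays the smallest p of the exact permutation test (two-sided) is 0.1. Krt14 minus Krt5 was 2.57, 2.68 and 2.19 in the Nkx2-1-shRNA arrays and 1.06, 0.95 and 0.94 in the controls, so Krt14 gained 1.50 on Krt5 (exact p = 0.1, adjusted over the 5 pairs 0.25). Krt13 minus Krt4 gained 1.10, with -0.75, -0.55 and -0.47 against -1.52, -2.21 and -1.34 (exact p = 0.1, adjusted 0.25). For both of these pairs the groups did not overlap, but Krt5 and Krt13 lay close to background and did not pass. Each gain therefore mainly repeats the change of Krt14 or Krt4 given above.

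Krt18 gained 0.33 on Krt8, and these groups overlapped (exact p = 0.3, adjusted 0.5). For Krt10 with Krt1 and Krt16 with Krt6a no difference is given, since Krt1 lay below background in both groups and Krt16 in the controls. Over all keratins both types were among those that rose, 5 of 27 type I and 5 of 24 type II, beside 10.7% of all genes. The keratin that fell was type II, and 9.88% of all genes fell.

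The changed keratins were then placed along the chromosomes. On chromosome 15, where 6 of 25 rose and 1 fell, Krt80 and Krt7 open the cluster, and Krt4, Krt79, Krt78, Krt8 and Krt18 close it in that order. Of these last 5, Krt4 fell, Krt8 did not pass and the others rose, so direct neighbors went opposite ways. Between the ends only Krt6a changed. On chromosome 11, 4 of 27 rose: Krt20 in the first part of the cluster, and Krt19, Krt14 and Krt16 near its end, with Krt9 between Krt19 and Krt14.

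The neighbors were counted in the same way. The 15 keratin-associated protein genes inside the chromosome 11 cluster held 0 that rose and 1 that fell, and the 10 genes on each side of it 3 and 5. The 10 genes on each side of the chromosome 15 cluster held 5 that rose and 1 that fell. Over whole chromosomes 9.92% of 1563 genes rose and 9.53% fell on chromosome 11, and 11.6% of 748 rose and 9.22% fell on chromosome 15.

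**Figure D3:**
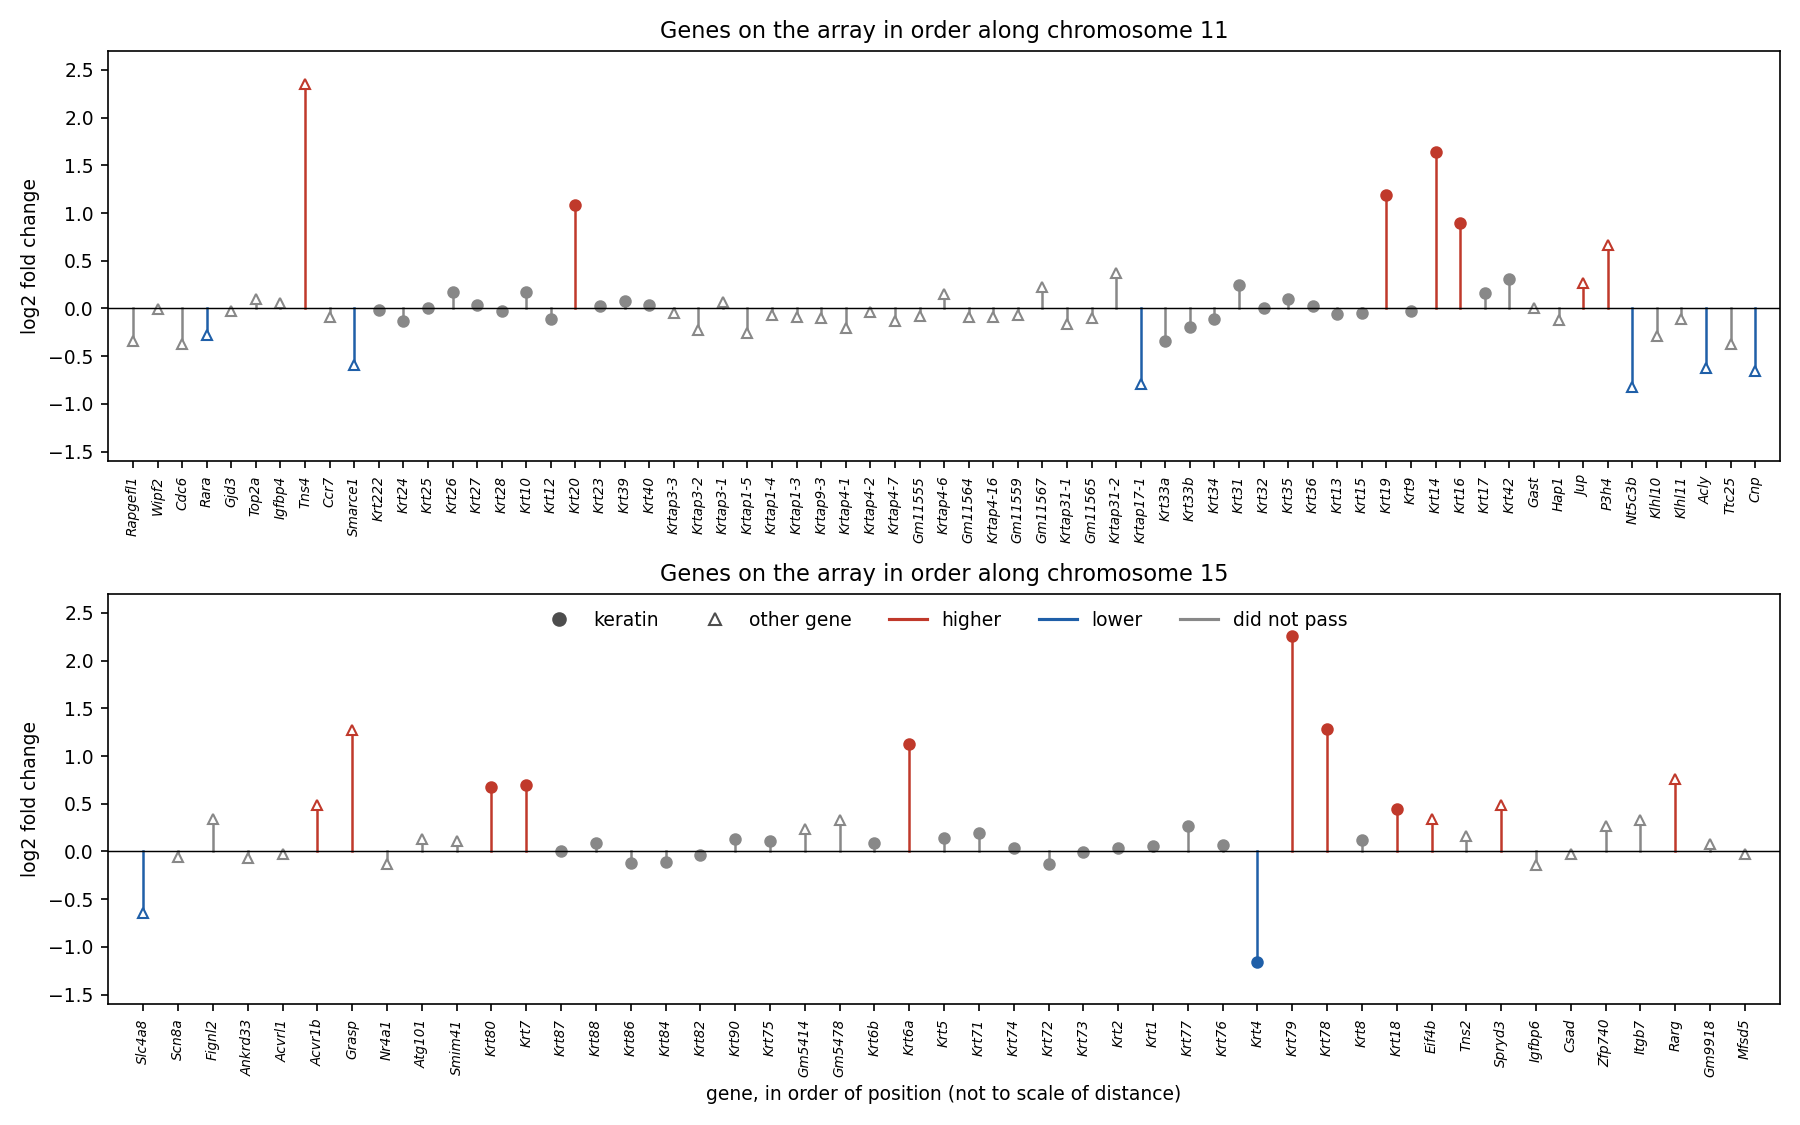
Log2 fold change (y axis, Nkx2-1-shRNA over control) of the genes of the chromosome 11 and chromosome 15 keratin clusters and of 10 genes on each side, in order of position and not to scale of distance; filled circles are keratins, open triangles other genes. On chromosome 15 the keratins that rose lie at both ends and, with Krt6a, in the middle; on chromosome 11 they are Krt20 in the first part and Krt19, Krt14 and Krt16 near the end. Krt4 (-1.16) lies beside Krt79 (2.26).

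Genes whose products hold or regulate keratin filaments were counted from lists drawn up by function. Earlier results of these data were known when the lists were made, so the counts describe the lists and are not a test. Of 13 that link keratins to desmosomes and hemidesmosomes, 7 rose and 1 fell, with a median log2 fold change of 0.27. All 13 lay above background, where 15.3% of genes rose and 13.9% fell. Pkp1, a desmosomal plaque protein of stratified epithelia, had 8.07, 7.96 and 7.99 in the Nkx2-1-shRNA arrays and 6.25, 5.82 and 5.93 in the controls, a rise of 2.00 ± 0.12 (SE, limma adjusted p = 0.000172). Dsp (desmoplakin), which ties keratins to the desmosome, rose by 1.24 ± 0.14, Plec (plectin), a cytolinker of hemidesmosomes, by 0.94 ± 0.090, and Itgb4, the hemidesmosomal integrin, by 0.86 ± 0.083. Dst, which encodes the dystonins and among them a hemidesmosome linker, was the member that fell (-0.56, adjusted p = 0.0134) and is named after its value was seen.

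Of 8 keratin-binding proteins, all above background as well, 2 rose and 2 fell, beside the same 15.3% and 13.9%. Fam83h, which recruits casein kinase 1 to keratin filaments, rose by 0.68 ± 0.081 and Csnk1a1, a casein kinase 1, by 0.44 ± 0.090. Hspb1, a small heat shock protein, fell by 0.95 on the log2 scale, and Tchp, which encodes trichoplein, fell by 0.43.

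Among 14 transcription factors of epithelial differentiation, 3 rose, 1 fell and 10 did not pass, beside 10.7% and 9.88% of all genes that rose and fell. The mean lay above background for 13 of the 14, and of all genes above background 15.3% rose and 13.9% fell. Elf3, an epithelial ETS factor, rose by 0.88 ± 0.14, Klf5, a factor of proliferating epithelium, by 0.69 ± 0.094, and Grhl3, a factor of epidermal barrier formation, by 0.44 ± 0.083. Cebpa, a factor of alveolar and other epithelia, fell by 0.44 on the log2 scale. Trp63, the defining factor of basal cells, had 4.97, 4.67 and 4.95 in the Nkx2-1-shRNA arrays and 4.82, 4.69 and 4.72 in the controls, overlapping groups a little above background (adjusted p = 0.524).

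Of 16 other intermediate filament genes 2 rose and 2 fell, beside the same 10.7% and 9.88% of all genes. Vim, the filament protein of mesenchymal cells, had 9.14, 9.08 and 9.07 in the Nkx2-1-shRNA arrays and 10.93, 11.04 and 10.70 in the controls, and fell by 1.80 on the log2 scale (SE 0.10, limma adjusted p = 0.000145). Nes (nestin) fell by 0.51. Lmna, which encodes the A-type lamins of the nucleus, rose by 0.76 ± 0.081, and Des, the muscle filament protein, rose by 0.61 ± 0.13. Of 44 keratin-associated protein genes, whose products bind keratins in hair, 0 rose and 1 fell (Krtap17-1, by 0.80), and 30 were below background in both groups.

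**Figure D4:**
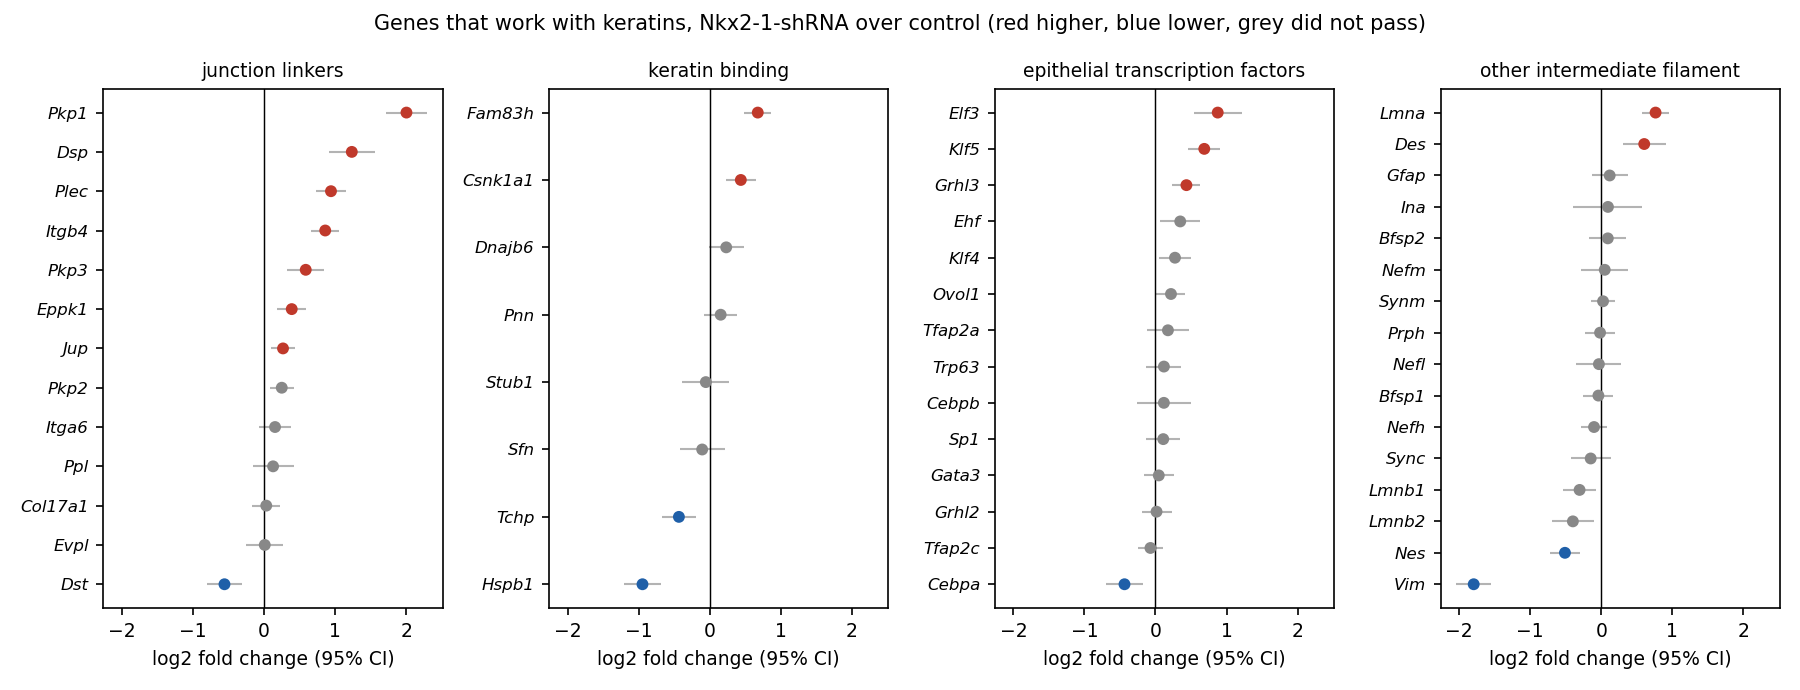
Log2 fold change (x axis, Nkx2-1-shRNA over control; points, estimate; bars, 95% confidence interval) of the genes of 4 lists around the keratins, red for genes that rose, blue for those that fell and grey for those that did not pass. In the list of junction linkers 7 of 13 rose, up to 2.00 for Pkp1, and among the other intermediate filaments Vim fell by 1.80.

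Markers of other cell types were measured beside these results. The summed signal of 5 airway basal markers was 8.11 to 8.28 in the Nkx2-1-shRNA arrays and 7.52 to 7.63 in the controls on the log2 scale, with Krt14 the 1 marker that rose, Ngfr the 1 that fell (-0.34), and Trp63, Krt5 and Pdpn not passing. Krt14 and Krt5, like Krt1 and Krt10 in the keratinocyte sum below, are keratins counted above. Neither sum is separate from those results. The summed signal of 4 keratinocyte markers was 6.66 to 6.78 against 7.12 to 7.32, with Ivl lower (-1.13) and both Krt1 and Lor below background. For 5 fibroblast markers it was 7.40 to 7.49 against 7.36 to 7.47, with 0 of 5 changed. The 4 leukocyte markers, 2 of them below background, held 0 changes, and of the 4 endothelial markers 3 were below background and Tek fell (-2.00). The part of other cell types in the keratin changes was not tested.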

How the data were processed

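Affymetrix Mouse Gene 1.0 ST arrays were hybridized with RNA of 3 Nkx2-1-shRNA and 3 non-silencing control MLE15 samples. The authors deposited log2 values, summarized with Expression Console 1.1 by Robust Multi-Array Analysis, and these were used unchanged. Genes were named through the platform annotation, in which 21789 of 35557 transcript clusters carried 1 symbol, 1621 several and 12147 none. The build of that annotation was not given in the sources used here, and gene order came from RefSeq (GRCm38.p6) by symbol. The test was limma 3.58.1 in R 4.3.3 without a block (4 residual and 2.86 prior degrees of freedom), with Benjamini-Hochberg adjustment, and was tested on simulated data.

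Members and lists were chosen with earlier results of these data known. Values are given for every keratin that passed and the best known of each group, for up to 4 called members of each other list, and for Dst. Each group has 3 arrays, which limits precision, and they were taken as independent lines, as the study describes. The limma p-values rest on the spread between these arrays, moderated with the spread over all transcript clusters. Alternatives were the methods' t-test, other priors, weights and normalizations, filters on low values, the replicate block, each array left out, and the study's threshold.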

Additional observations from a re-analysis of the deposited data

How the results depend on the processing

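The count of 10 keratins that rose was also 10 with a trended and robust prior, array weights, quantile normalization and median centring. It was 10 as well with clusters of 1 symbol and with the replicate block. Under these settings 8.93% to 13.5% of all genes rose. The count was 9 above the background limit (30 keratins tested, Krt16 not among them), where 18.0% of genes rose. Above the median level it was 8 (14 tested), where 21.9% of genes rose. The methods' t-test after Benjamini-Hochberg adjustment gave 8 higher and 0 lower, beside 8.26% and 7.12% of all genes. It shared 7 of the 11 calls and gained Krt10, and 17 keratins had an unadjusted p under 0.05. The test for unequal variances gave 3 higher and 0 lower, beside 3.59% and 2.95% of all genes, and 16 at an unadjusted p under 0.05. The study's threshold gave 2 higher and 0 lower in limma, beside 1.25% and 0.622% of all genes. At an unadjusted p under 0.05 limma gave 14 of the 52 keratins, beside 6593 of all 19938 genes. For the other tests this count over all genes is not given. The cause of these differences was not tested. Krt4 had an adjusted p of 0.000366 to 0.154 over the alternatives. It passed in all but the methods' t-test, the test for unequal variances and the study's threshold. Krt79 and Krt14 passed in all. With 1 array left out, 7 to 10 rose, 7 of them without the first Nkx2-1-shRNA array (Krt7, Krt16 and Krt80 lost), and 1 to 1 fell. In these fits 6.75% to 8.74% of all genes rose and 5.63% to 8.78% fell. The median log2 fold change of the keratins was 0.057 to 0.085 with 1 array left out, 0.11 after quantile normalization, 0.15 after median centring, and 0.56 above the median level, where fewer keratins were tested. No keratin that passed changed direction under any alternative.

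Deviations from the group means correlated at 0.058, 0.14 and -0.034 between arrays with the same replicate number, so little effect shared by that number was seen. These correlations cannot show whether the samples were made in pairs. With the replicate block 10 keratins rose and 1 fell, the same 11 genes, beside 8.93% and 7.81% of all genes. Averaging the transcript clusters of a gene gave no other value, since each keratin has 1.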
